A study of Mus musculus with 6 samples.

Results

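The matrix metalloproteinase (MMP) genes described here are Mmp2, Mmp3, Mmp8, Mmp9, Mmp11, Mmp12, Mmp13, Mmp14, Mmp19 and Mmp23, which are 10 of 42256 genes in the count table and 10 of the 23 MMP genes of the annotation. They were chosen by name, found through the Ensembl identifiers of the table, and all 10 passed the filter on low counts. Expression was measured by RNA-seq in PDGFRa+ cells, a sorted cell fraction rich in cardiac fibroblasts, from scar tissue of mouse hearts taken 7 days after myocardial infarction. The 4 Htr2b_cKO libraries have the genotype Htr2bfl/flPostnMCM/+, in which the serotonin receptor gene Htr2b is floxed and an inducible Cre is carried at 1 allele of Postn, a gene that activated fibroblasts switch on. The 2 control libraries have the genotype Htr2bfl/fl and no Cre. All mice, controls included, were of a mixed 129S2/C57Bl6 strain and received tamoxifen in their chow, starting 1 week ahead of the injury and lasting until harvest. The labels give no age or sex. No control carried the Cre, so effects of the Cre, of its Postn allele and of the lost Htr2b cannot be told apart. The Postn locus limits recombination to cells that have switched that gene on. The labels do not say whether each library came from a separate animal, so p-values measure only the spread between these libraries, which may be technical.

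MMPs are zinc-dependent endopeptidases that cleave collagens, elastin, proteoglycans and other matrix proteins. Most are secreted as inactive precursors and a few are anchored in the membrane, their activity is set free by removal of a propeptide, and it is held in check by the tissue inhibitors of metalloproteinases (TIMPs). In the infarcted heart they clear damaged matrix and take part in laying down the scar, with fibroblasts, macrophages and neutrophils as sources. RNA levels do not show how much of a precursor is activated.

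Library totals ran from 28533427 to 37392496 estimated counts, and a count of 0 allows up to 3 counts, or 0.0781 to 0.108 CPM (counts per 1e6 library counts, TMM-scaled), for counting error only. Htr2b itself was at 0.338 and 0.253 CPM in control and at 0, 0.0904, 0.876 and 0.119 CPM across the 4 Htr2b_cKO libraries 1 to 4. The library labelled Htr2b_cKO 3 thus lay above both controls, and the level of the target gene does not bear out its label. These levels are low, and counts per gene do not show whether the floxed part of Htr2b was removed. In Htr2b_cKO 4, Xist, the RNA of the inactive X chromosome of females, was at 0.267 CPM against 385 CPM or more in the other 5 libraries. Pdgfra, which encodes the sorted receptor, ran from 668 to 1237 CPM. The counts of called genes were also taken without these libraries.

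Of the 10 genes, 4 lie on chromosome 9, in a cluster of 10 MMP genes that spans 427072 bases from 7272514 to 7699585 (mm10). They are Mmp13, Mmp12, Mmp3 and Mmp8, in that order and all on the plus strand, with Mmp1b between Mmp12 and Mmp3, and Mmp1a and Mmp10 between Mmp3 and Mmp8. The promoter sequences of these 4 genes, from 250 bases before to 50 bases after the annotated start (RefSeq, GRCm38.p6, plus strand), are shown because the genes are close together and differ widely in level. Capitals mark TGANTCA, the motif of the AP-1 transcription factors, and TATAAA on either strand, and no capital motif overlaps another.
Mmp13, chr9:7272264-7272563: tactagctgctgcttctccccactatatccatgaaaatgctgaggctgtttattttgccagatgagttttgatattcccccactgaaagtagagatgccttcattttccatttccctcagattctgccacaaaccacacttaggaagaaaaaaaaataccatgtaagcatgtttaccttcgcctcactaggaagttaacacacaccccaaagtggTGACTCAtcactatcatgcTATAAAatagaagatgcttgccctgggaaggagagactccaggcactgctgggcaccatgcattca
Mmp12 (second start in the table), chr9:7347124-7347423: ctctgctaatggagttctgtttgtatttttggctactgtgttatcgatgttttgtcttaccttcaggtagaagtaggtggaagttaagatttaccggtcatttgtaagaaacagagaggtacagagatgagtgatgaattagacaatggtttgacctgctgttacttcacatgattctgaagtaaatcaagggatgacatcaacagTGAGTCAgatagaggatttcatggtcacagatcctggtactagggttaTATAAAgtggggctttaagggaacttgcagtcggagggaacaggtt
Mmp3, chr9:7445572-7445871: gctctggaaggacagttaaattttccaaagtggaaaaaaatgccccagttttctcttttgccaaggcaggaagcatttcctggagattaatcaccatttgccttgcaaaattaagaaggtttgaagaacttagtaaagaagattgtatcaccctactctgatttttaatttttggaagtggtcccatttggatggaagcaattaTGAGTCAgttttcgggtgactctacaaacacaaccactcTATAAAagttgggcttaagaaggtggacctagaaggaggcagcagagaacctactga
Mmp8, chr9:7558179-7558478: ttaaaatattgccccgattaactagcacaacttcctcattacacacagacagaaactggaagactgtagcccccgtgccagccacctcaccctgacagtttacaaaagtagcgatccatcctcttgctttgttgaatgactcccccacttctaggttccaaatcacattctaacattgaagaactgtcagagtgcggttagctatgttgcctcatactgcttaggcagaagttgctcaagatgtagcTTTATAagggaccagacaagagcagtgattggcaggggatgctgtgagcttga
TGANTCA was found once each in the promoters of Mmp13, Mmp3 and the second start of Mmp12, and not in that of Mmp8. Among all 32851 promoters given there, 7.81% hold TGANTCA and 13.6% hold TATAAA. The latter was found in all 4 sequences shown, in Mmp8 on the minus strand. For 7 of the 10 genes a promoter was matched, and the promoters of Mmp11, Mmp14, Mmp23 and the first start of Mmp12 held neither motif. No promoter was matched for Mmp2, Mmp9 and Mmp19.

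Per kilobase of annotated exon, Mmp2 was the most abundant of the 10 transcripts and Mmp13 the least. Mmp2 stood at 331.9 CPM per kb (SD 51.3, n = 6 libraries of both groups), and Mmp14 followed at 147 (SD 21.9). Next came Mmp23 at 75.4 (SD 7.49), Mmp19 at 66.9 (SD 20.3) and Mmp3 at 47.6 (SD 21.6). All 5 were at 20.2 CPM per kb or more in every library, and the lowest value was that of Mmp3 in Htr2b_cKO 1. Far below them were Mmp9 at 8.39 CPM per kb (SD 3.49), Mmp11 at 6.92 (SD 1.24), Mmp8 at 1.75 (SD 1.11), Mmp12 at 0.762 (SD 0.39) and Mmp13 at 0.452 (SD 0.323). Mmp2 exceeded Mmp14, Mmp14 exceeded Mmp23, Mmp3 exceeded Mmp9, Mmp11 exceeded Mmp8 and Mmp8 exceeded Mmp12 in 6 of 6 libraries. The neighbours Mmp23 and Mmp19, Mmp19 and Mmp3, and Mmp9 and Mmp11 kept their order in 4 of 6 libraries each, and Mmp12 and Mmp13 in 5 of 6. The order within these pairs thus varied between libraries, and differences between levels were not tested. The order of the means was the same with the longest coding transcript of each gene as its length, though some levels moved. Mmp14 was then at 270 CPM per kb and Mmp12 at 1.53.

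Mmp2 made up 45.9% to 53.5% of the summed level per kb of the 10 genes, and Mmp14 19.8% to 22.7%. The sum was 670 and 664 CPM per kb in control libraries and 808, 693, 581 and 703 in Htr2b_cKO libraries 1 to 4. Both controls lay inside the range of the Htr2b_cKO libraries. Within the chromosome 9 cluster Mmp3 stood far above its neighbours. As means over the 6 libraries, Mmp10 was at 0.39, Mmp8 at 1.75, Mmp27 at 1.72 and Mmp12 at 0.762 CPM per kb, against 47.6 for Mmp3.

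**Figure D1:**
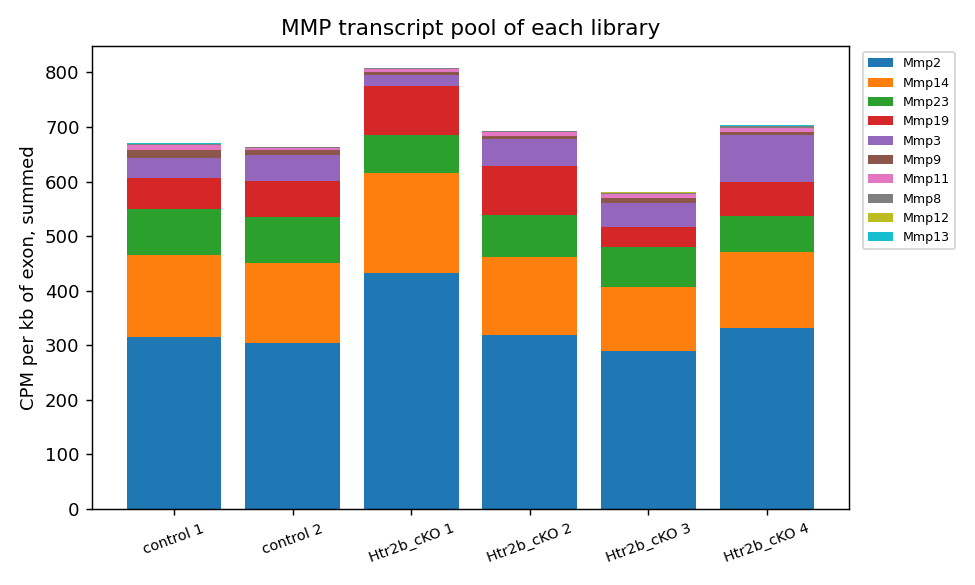
Summed level of the 10 MMP genes in each library, in CPM per kb of exon, stacked by gene from the most abundant (Mmp2, bottom) to the least. Mmp2 and Mmp14 fill most of each bar, and the bars range from 581 in the library labelled Htr2b_cKO 3 to 808 in Htr2b_cKO 1.

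No MMP gene passed the test between genotypes. In the edgeR fit over 15840 genes, 0 of the 10 had an adjusted p under 0.05, where 0.0189% of all genes did. DESeq2 called 0 of the 10, where it called 0.953% of the 14275 genes it gave an adjusted p, and limma voom called 0, where it called 0.00631% of all genes. One gene, Mmp9, had an unadjusted p under 0.05 in edgeR, and the background for that is 9.59% of genes. Of the 10, 6 had a log2 fold change (Htr2b_cKO minus control) above 0 and 4 below, with a median of 0.09, beside a median of -0.000125 over all genes tested. The libraries of the genotypes did not overlap for 1 gene, Mmp23, and this holds for 19.6% of all genes. With 2 control libraries the 95% intervals are wide, and those of Mmp3, Mmp8, Mmp9, Mmp12 and Mmp13 reach beyond 1 on the log2 scale in at least 1 direction.

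**Figure D2:**
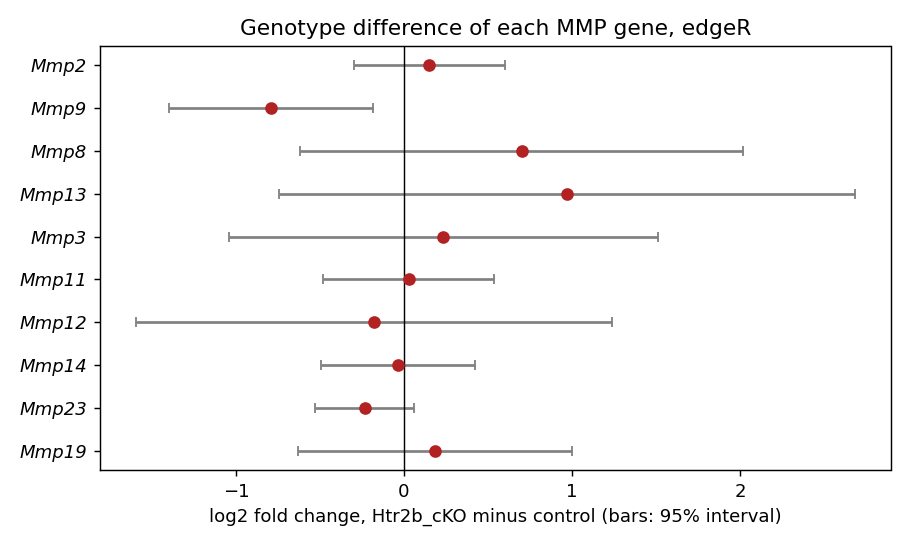
Log2 fold change of each MMP gene, Htr2b_cKO minus control, from the edgeR fit, with its 95% interval. Only the interval of Mmp9, from -1.40 to -0.18, leaves out 0, and it is not adjusted for the number of genes tested.

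The gelatinases, which cleave denatured collagen and type IV collagen of basement membranes, include the most abundant of the genes, Mmp2, and the one with the smallest p, Mmp9. Mmp2 (ENSMUSG00000031740, chromosome 8 from 92827291 to 92853420), the gelatinase made constitutively by fibroblasts, was at 1059 and 1026 CPM in control and at 1459, 1076, 977 and 1117 CPM across the 4 Htr2b_cKO libraries 1 to 4. Htr2b_cKO 1 was the highest library, and the library labelled Htr2b_cKO 3 lay below both controls. The estimated log2 change was 0.15 (SE 0.20, 95% interval -0.30 to 0.60, adjusted p = 0.839 in edgeR). It ranged from 0.03 without Htr2b_cKO 1 to 0.23 without the library labelled Htr2b_cKO 3, and was 0.32 after correction for GC content and length. Mmp9 (ENSMUSG00000017737, chromosome 2 from 164940780 to 164955850), the gelatinase that neutrophils store and macrophages secrete, was at 53.2 and 29.4 CPM in control and at 20.1, 19.9, 30.9 and 24.7 CPM across the 4 Htr2b_cKO libraries. Control 1 was the highest library, while control 2 lay below the library labelled Htr2b_cKO 3, so the groups overlapped. Mmp9 had a 1.73-fold lower estimate in Htr2b_cKO (log2 fold change -0.79, SE 0.26, adjusted p = 0.427 in edgeR). The estimate was -0.30 without control 1 and -1.15 without control 2, and the adjusted p ran from 0.221 to 0.999 over the alternatives.

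**Figure D3:**
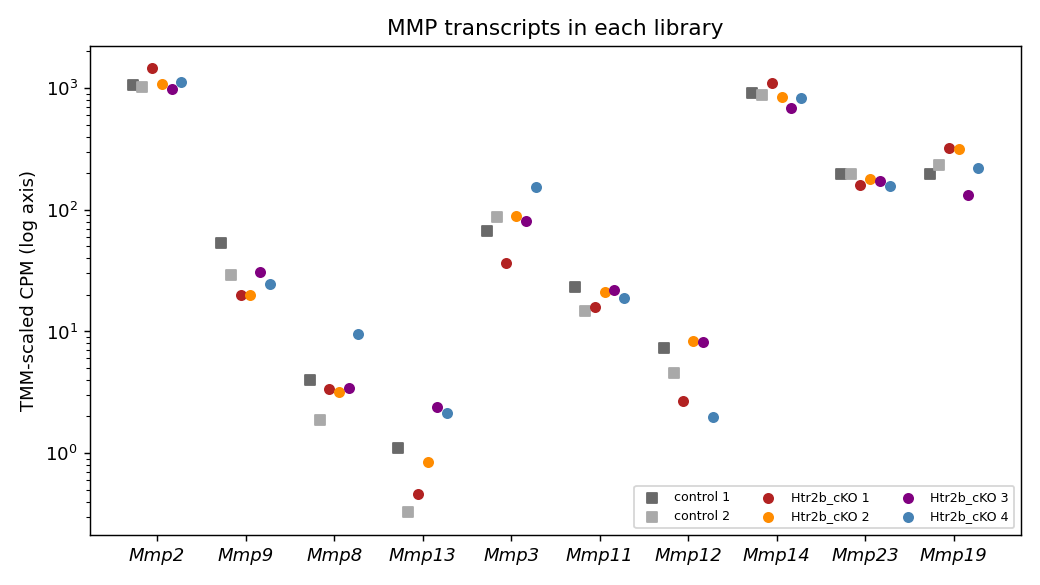
TMM-scaled CPM of each MMP gene in each library on a log axis, with squares for the 2 controls and circles for the 4 Htr2b_cKO libraries. Mmp23 is the gene in which all circles lie below both squares, and Mmp8 has 1 circle, Htr2b_cKO 4 at 9.54 CPM, apart from the rest.

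The collagenases cut intact fibrillar collagen, and both were scarce. Mmp8 (ENSMUSG00000005800, chromosome 9 from 7558456 to 7568485), the collagenase of neutrophil granules, was at 4.01 and 1.88 CPM in control and at 3.38, 3.19, 3.41 and 9.54 CPM across the 4 Htr2b_cKO libraries. Htr2b_cKO 4 stood apart at the top, and the other 3 Htr2b_cKO libraries lay between the controls. The log2 fold change of Mmp8 was 0.70 (SE 0.57, adjusted p = 0.72 in edgeR). It was 0.14 without Htr2b_cKO 4, 0.30 without control 2 and 1.38 without control 1. Mmp13 (ENSMUSG00000050578, chromosome 9 from 7272514 to 7283331), a collagenase of activated fibroblasts and cartilage, was at 1.09 and 0.325 CPM in control and at 0.463, 0.843, 2.38 and 2.14 CPM across the 4 Htr2b_cKO libraries. The library labelled Htr2b_cKO 3 and Htr2b_cKO 4 were above both controls, and the other pair lay between them. Its fold change was 0.97 on the log2 scale (SE 0.75, 95% interval -0.74 to 2.68, adjusted p = 0.704 in edgeR). It was -0.19 when Htr2b_cKO 4 and the library labelled Htr2b_cKO 3 were both left out, 0.45 without control 2 and 2.18 without control 1.

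The stromelysins are Mmp3, whose protein cleaves proteoglycans, fibronectin and other noncollagenous matrix, and Mmp11. Mmp3 (ENSMUSG00000043613, chromosome 9 from 7445822 to 7455975), which also activates other MMP precursors, was at 67.0 and 86.4 CPM in control and at 36.3, 88.8, 80.7 and 154 CPM across the 4 Htr2b_cKO libraries. Both extremes were Htr2b_cKO libraries, number 1 the lowest and number 4 the highest. The log2 fold change of 0.23 (SE 0.52, adjusted p = 0.915 in edgeR) turned to -0.16 without Htr2b_cKO 4. Mmp11 (ENSMUSG00000000901, chromosome 10 from 75923222 to 75936496), which is activated inside the cell by furin, was at 23.3 and 14.6 CPM in control and at 15.9, 21.0, 21.9 and 18.7 CPM across the 4 Htr2b_cKO libraries. All 4 Htr2b_cKO libraries lay between the controls (log2 fold change 0.03, SE 0.22, adjusted p = 0.979 in edgeR), and the sign depended on which library was left out. Mmp11 overlaps Chchd10 over 3367 bases on the opposite strand, and because the strand setting of the counting is not given, reads there could belong to either gene.

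Mmp12 (ENSMUSG00000049723, chromosome 9 from 7344381 to 7369499), the macrophage elastase, was at 7.36 and 4.56 CPM in control and at 2.67, 8.31, 8.18 and 1.99 CPM across the 4 Htr2b_cKO libraries. Here too both extremes belonged to the Htr2b_cKO group, and edgeR gave a log2 fold change of -0.18 (SE 0.60, adjusted p = 0.947). The estimate was 0.22 without control 1, 0.04 without Htr2b_cKO 1 and 0.10 without Htr2b_cKO 4, and fell to -0.48 without Htr2b_cKO 2 and to -0.60 after correction for GC content and length. The 3 libraries with the most Mmp12, control 1, Htr2b_cKO 2 and the library labelled Htr2b_cKO 3, were also those with the most macrophage marker RNA. The summed level of 12 macrophage markers was 3001 and 1064 CPM in control and 1011, 2555, 4628 and 567 CPM across the 4 Htr2b_cKO libraries, no marker of the list was at 0 in any library, and all 12 had their 3 highest values in those 3 libraries. The part of these cells in the level of Mmp12 was not tested. In such bulk samples fewer cells of a type and less RNA per cell cannot be told apart. The last 1261 bases of Mmp12 overlap Mmp1b on the opposite strand, and Mmp1b was at 0.156 CPM in control 1 and at 0 in the other 5 libraries.

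The membrane-bound members varied little between libraries. Mmp14 (ENSMUSG00000000957, chromosome 14 from 54431612 to 54445364), which cuts fibrillar collagen at the cell surface and activates the MMP2 precursor with the help of TIMP2, was at 905 and 871 CPM in control and at 1094, 850, 693 and 829 CPM across the 4 Htr2b_cKO libraries. Htr2b_cKO 1 was above both controls and the other 3 were below (log2 fold change -0.04, SE 0.20, 95% interval -0.49 to 0.42, adjusted p = 0.969 in edgeR). The estimate was 0.07 without the library labelled Htr2b_cKO 3 and 0.06 after correction for GC content and length. Mmp23 (ENSMUSG00000029061, chromosome 4 from 155650655 to 155653384), which is made as a membrane protein and lacks the hemopexin domain of most MMPs, was at 196 CPM in each control (196.5 and 195.7) and at 159, 180, 172 and 155 CPM across the 4 Htr2b_cKO libraries. All 4 Htr2b_cKO libraries were below both controls, which is so for 8.98% of all genes. The estimated log2 change was -0.23 (SE 0.13, 95% interval -0.53 to 0.06, adjusted p = 0.61 in edgeR), and -0.02 after correction for GC content and length.

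Mmp19 (ENSMUSG00000025355, chromosome 10 from 128790910 to 128800824), a secreted MMP that cleaves basement membrane proteins, was at 198 and 235 CPM in control and at 319, 315, 132 and 219 CPM across the 4 Htr2b_cKO libraries. Htr2b_cKO 1 and 2 were above both controls, and the library labelled Htr2b_cKO 3 was the lowest library. The estimated log2 change was 0.18 (SE 0.35, adjusted p = 0.898 in edgeR). It was 0.05 without Htr2b_cKO 1 and likewise without Htr2b_cKO 2, 0.07 without control 1, 0.40 without the library labelled Htr2b_cKO 3 and 0.55 when Htr2b_cKO 4 was left out as well. Mmp19 shares 789 bases with Tmem198b on the opposite strand.

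**Figure D4:**
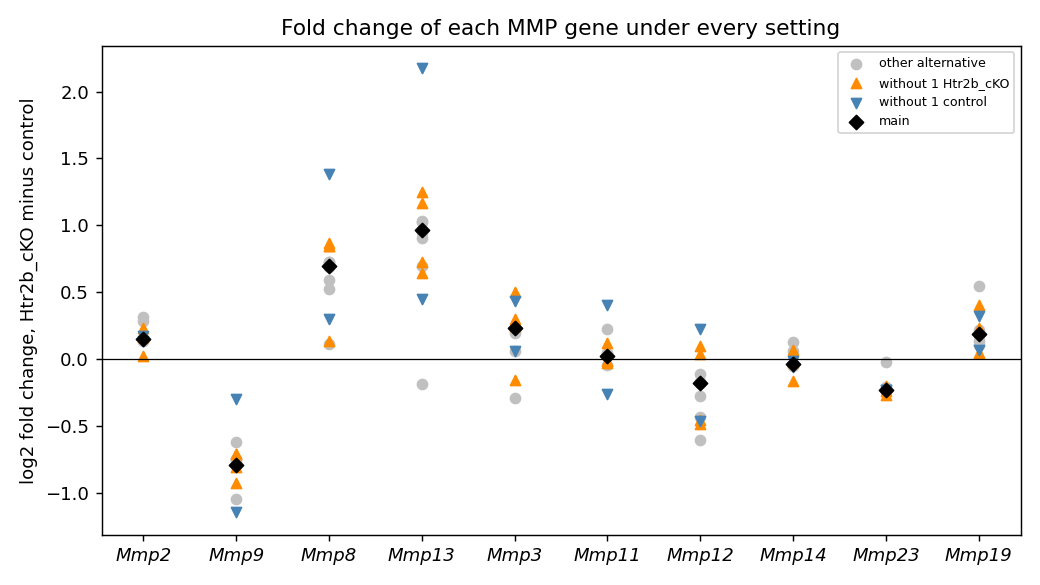
Log2 fold change of each MMP gene, Htr2b_cKO minus control, in the edgeR fit of all libraries (diamonds), without 1 control (triangles down), without 1 Htr2b_cKO library (triangles up) and under the other alternatives (circles). Mmp9 and Mmp23 stayed below 0 at every point, and Mmp2, Mmp8 and Mmp19 stayed above 0. Mmp8 and Mmp13 had the widest ranges, and Mmp13 went to -0.19 without Htr2b_cKO 4 and the library labelled Htr2b_cKO 3.

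The genes differed in how much they varied across the 6 libraries. The SD of log2(CPM + 0.1) was 0.14 for Mmp23, 0.20 for Mmp2, 0.21 for Mmp14 and 0.27 for Mmp11, beside a median of 0.25 over the 12519 tested genes with a mean log2 CPM of at least 1. It was 0.47 for Mmp19, 0.52 for Mmp9, 0.68 for Mmp3, 0.74 for Mmp8 and 0.87 for Mmp12. The SD of Mmp3 exceeded that of 93.7% of those genes, that of Mmp8 94.96% and that of Mmp12 96.7%. Mmp13, below that minimum, differed 7.33-fold between its highest and lowest library.

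For the 3 most variable of the genes above the minimum, the genes with the most similar profile over the 6 libraries were sought among 12518 others, by the root mean square difference of centred log2 CPM. Closest to Mmp12 were Ptpn7 (0.12), Adap1 (0.13) and Dock2 (0.14). Dock2 was at 25.6 and 13.1 CPM in control and at 9.44, 23.6, 29.8 and 6.42 CPM across the 4 Htr2b_cKO libraries. Closest to Mmp8 were Nt5e (0.23), Alpl (0.28) and Pcsk5 (0.30), and all 3 had their highest value in Htr2b_cKO 4. Closest to Mmp3 were Tmem132e (0.17), E2f5 (0.20) and Klhdc1 (0.23), each lowest in Htr2b_cKO 1 and highest in Htr2b_cKO 4. Over 6 points many genes can match a profile by number alone, and these are descriptions with no test.

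Mmp8 and Mmp9 are carried by neutrophils, and markers of these cells moved partly with them. The summed level of 12 neutrophil markers was 114 and 39.9 CPM in control and 30.9, 29.5, 37.5 and 84.5 CPM across the 4 Htr2b_cKO libraries. Mmp9 was highest in control 1, which had the highest marker sum, but not high in Htr2b_cKO 4, the second in that sum. Mmp8 was highest in Htr2b_cKO 4 and lowest in control 2. Of the 12 markers 11 were tested, all with a fold change below 0 and 0 called by edgeR. In edgeR 2 had an unadjusted p under 0.05 (Ngp and Ltf), beside 9.59% of all genes. Control 1 was the highest library for 9 of the 12. Ngp and Ltf were at 3.62 and 3.51 CPM there and at 0.398 and 0.325 CPM in control 2. Across the 4 Htr2b_cKO libraries Ngp was at 0.0603 to 0.574 CPM and Ltf at 0 to 0.211 CPM. S100a8 and S100a9, the most abundant, were at 32.5 and 45.4 CPM in control 1 and at 23.4 and 42.2 CPM in Htr2b_cKO 4, so they make up most of both sums. The other 10 markers summed to 36.6 and 12.4 CPM in control and to 14.3, 11.7, 17.9 and 18.9 CPM in Htr2b_cKO libraries 1 to 4. Of the 12, 6 were higher in Htr2b_cKO 4 than in control 2, namely S100a8, S100a9, Retnlg, Csf3r, Cxcr2 and Stfa2l1. Retnlg, at 2.41 CPM, was highest there of all 6 libraries, and 8 of the 12 had 1 of their 3 highest values there. Ly6g, which defines mouse neutrophils, was at 0 counts in Htr2b_cKO 4 and at 1 count in control 2. The granule genes Ltf, Ngp and Camp were at 0.178, 0.267 and 0.357 CPM in Htr2b_cKO 4, or 6, 9 and 12 counts. Control 2 had 9, 11 and 10 counts of these genes, too few to read a direction. Elane, another granule gene, had 1 count in control 2, 1 in Htr2b_cKO 4 and 0 in the other 4 libraries. The part of neutrophils in the levels of Mmp8 and Mmp9 was not tested.

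**Figure D5:**
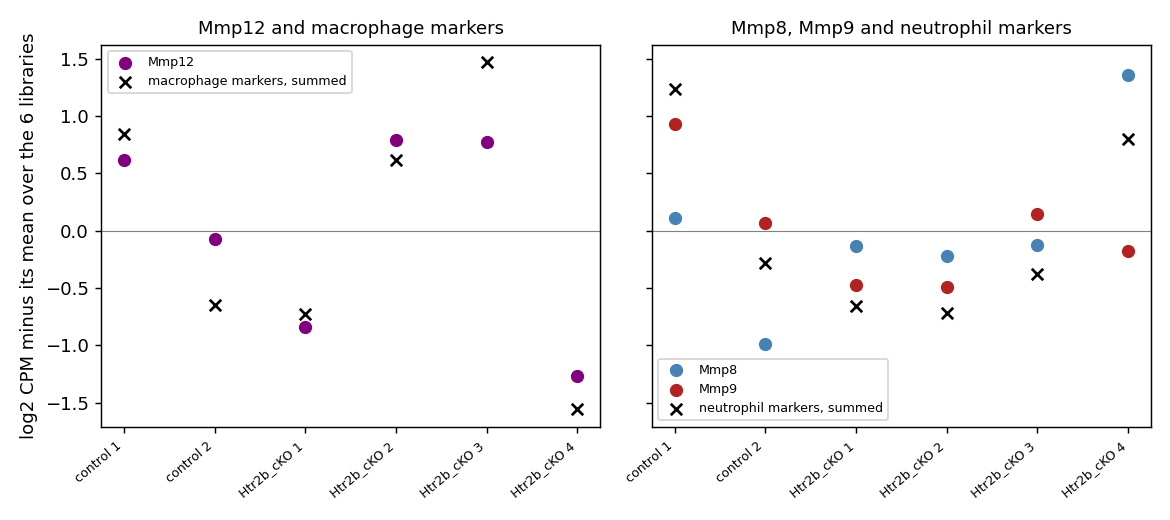
Log2 CPM of Mmp12 (left) and of Mmp8 and Mmp9 (right) in each library, minus the mean over the 6 libraries, beside the summed macrophage and neutrophil markers (crosses). Mmp12 and the macrophage markers are both high in control 1, Htr2b_cKO 2 and the library labelled Htr2b_cKO 3, and Mmp8 and the neutrophil marker sum, there mostly S100a8 and S100a9, are both high in Htr2b_cKO 4.

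Markers of other cells also varied, with 0 called in any list by edgeR. Lymphocyte markers summed to 21.0 and 6.62 CPM in control and 2.60 to 13.6 CPM across the 4 Htr2b_cKO libraries, and 2 of 5 tested had an unadjusted p under 0.05, beside 9.59% of all genes. Endothelial markers summed to 432 and 127 CPM in control and 125 to 198 CPM across the 4 Htr2b_cKO libraries (2 of 8 under 0.05). Mural markers summed to 139 to 232 CPM over all libraries (2 of 7), cardiomyocyte markers to 11.6 to 44.4 CPM (0 of 8) and mesothelial markers to 241 to 405 CPM (1 of 7). Control 1 had the highest neutrophil, lymphocyte, endothelial, mural and cardiomyocyte sums of the 6 libraries. It was also the library with the most Mmp9, and the part of those cells in that level was not tested. Fibroblast markers summed to 80300 CPM in the library labelled Htr2b_cKO 3 and 94190 CPM in control 1, the lowest libraries, and to 132300 CPM in Htr2b_cKO 4, and 0 of 12 had an unadjusted p under 0.05. Macrophage markers had 0 of 12.

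Among the other MMP genes, 8 of 13 passed the filter on low counts, with 5 above 0, 3 below and 0 called by edgeR. Mmp16, a membrane-type MMP, was at 6.27 and 4.95 CPM in control and at 9.73, 6.36, 9.57 and 8.94 CPM across the 4 Htr2b_cKO libraries. Every Htr2b_cKO library lay above both controls, as they did for 10.6% of all genes (log2 fold change 0.61, SE 0.26, adjusted p = 0.51 in edgeR). Mmp15, another membrane-type MMP, was at 12.2 and 4.16 CPM in control and at 3.21 to 6.48 CPM across the 4 Htr2b_cKO libraries. Mmp17 ran from 7.84 to 12.2 CPM, Mmp28 from 4.66 to 15.8 CPM and Mmp27 from 1.53 to 6.36 CPM over the 6 libraries. Mmp7 and Mmp21 were at 0 counts in all 6.

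Per kilobase of exon the inhibitors were more abundant than the proteases in every library. Timp1 to Timp4 summed to 762 to 1768 CPM per kb, against 581 to 808 for the 10 MMP genes. This order depended on the division by length. The sum in CPM was taken over 6 inhibitor genes, which add Reck and A2m to Timp1 to Timp4. In CPM the 10 MMP genes summed to more than those 6 in control 1, Htr2b_cKO 1 (3110 against 2591) and Htr2b_cKO 2. The MMP sum was the lower in control 2, the library labelled Htr2b_cKO 3 and Htr2b_cKO 4 (2532 against 2845). In the library labelled Htr2b_cKO 3 the sums were 2120 and 2157 CPM with Reck at 41.7 CPM, so that order depended on counting Reck. Of 6 inhibitor genes 3 had a fold change above 0 and 3 below it, with a median of 0.04 and 0 called by edgeR. Timp2, whose protein joins MMP14 and the MMP2 precursor, was at 1265 and 1447 CPM in control and at 1311, 1093, 1322 and 1012 CPM across the 4 Htr2b_cKO libraries, a log2 fold change of -0.20 (SE 0.18, adjusted p = 0.762 in edgeR). Timp1, the inducible inhibitor, was at 505 and 564 CPM in control and at 481, 775, 325 and 1284 CPM across the 4 Htr2b_cKO libraries. Htr2b_cKO 4 was the highest library for Timp1 and for Mmp3. Reck, a membrane-anchored inhibitor, was at 25.6 to 41.7 CPM. Timp4 was at 8.66 CPM in control 1 and at 1.81 CPM or less in the other 5 libraries (adjusted p = 0.477 in edgeR, with an unadjusted p under 0.05).

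The summed level of the 10 MMP genes over that of Timp1 to Timp4, both per kb, was 0.705 and 0.613 in control and 0.833, 0.567, 0.763 and 0.398 in Htr2b_cKO libraries. The controls lay within the range of the Htr2b_cKO libraries. Mmp14 over Mmp2, the activator over its substrate, was 0.483 and 0.48 in control and 0.424, 0.447, 0.401 and 0.42 in Htr2b_cKO libraries, so all 4 Htr2b_cKO libraries lay below both controls. Among single genes 8.98% of those tested did so, and no such share was taken for ratios. Mmp2 over Timp2 was 0.967 and 0.819 in control and 1.29, 1.14, 0.854 and 1.27 in Htr2b_cKO libraries, with the library labelled Htr2b_cKO 3 between the controls and the others above both. These ratios are descriptions of levels per exon length, with no test.

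Genes that activate or clear MMPs were not called either. Of 15, 14 were tested, with 6 above 0, 8 below, a median of -0.02 and 0 called or with an unadjusted p under 0.05 in edgeR. Plau, the urokinase gene, had 83.3 and 89.1 CPM in control and 58.3 to 85.6 CPM across the 4 Htr2b_cKO libraries. Bsg, whose protein induces MMPs in fibroblasts, was at 632 and 562 CPM in control and below both, at 460 to 555 CPM across the 4 Htr2b_cKO libraries. That holds for 8.98% of all genes, and the adjusted p of Bsg was 0.674 in edgeR. Thbs2, which helps to clear MMP2, was at 502 and 357 CPM in control and at 449 to 582 CPM across the 4 Htr2b_cKO libraries. Pcsk5, a proprotein convertase, was at 11.6 to 28.3 CPM, highest in Htr2b_cKO 4.

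Of 20 MMP substrates 14 were above 0 and 6 below, with a median of 0.09 and 0 called by edgeR. Vcan, the versican gene, was the only substrate with an unadjusted p under 0.05, and only just (adjusted p = 0.52 in edgeR), beside 9.59% of all genes. It was at 356 and 539 CPM in control and at 778, 651, 474 and 785 CPM across the 4 Htr2b_cKO libraries. Tnc, the tenascin-C gene, was at 466 and 395 CPM in control and at 1837, 1046, 344 and 761 CPM across the 4 Htr2b_cKO libraries, a log2 fold change of 1.21 (SE 0.63, adjusted p = 0.606 in edgeR). Spp1, the osteopontin gene, was at 213 and 126 CPM in control and at 139, 315, 392 and 370 CPM across the 4 Htr2b_cKO libraries. Col6a1 was at 1705 and 1742 CPM in control and at 1719 to 2747 CPM across the 4 Htr2b_cKO libraries. In Vcan, Tnc, Spp1 and Col6a1 alike, at least 1 Htr2b_cKO library lay at or below the level of a control.

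The transcription factors and cytokines known to induce MMPs numbered 18, with 12 above 0, 6 below, a median of 0.09 and 0 called or with an unadjusted p under 0.05 in edgeR. Fosb, an AP-1 subunit, was at 1165 and 1362 CPM in control and at 1601, 1748, 1457 and 2478 CPM across the 4 Htr2b_cKO libraries, a log2 fold change of 0.53 (SE 0.24, adjusted p = 0.549 in edgeR). Runx2, a regulator of Mmp13 in bone, was at 8.98 and 6.15 CPM in control and at 9.39 to 12.7 CPM across the 4 Htr2b_cKO libraries. Rela, the NF-kB subunit gene, was at 85.1 and 101 CPM in control and at 72.3 to 82.2 CPM across the 4 Htr2b_cKO libraries. Fosb and Runx2 had all Htr2b_cKO libraries above both controls and Rela had all below, 3 of 18 genes beside 19.6% of all genes. Fosl2 was at 199.7 to 348 CPM over the 6 libraries, highest in Htr2b_cKO 4.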

How the data were processed

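RNA-seq libraries of PDGFRa+ cells were made with a kit that keeps strand, per the labels' protocols. The authors deposited estimated counts, as unnormalized whole numbers for each Ensembl gene, and a normalized signal, which here served as offsets in 1 alternative. DRAGEN, DESeq2 and mm10 are named without roles per the submitters' processing notes, and the columns end as gene-level quantifier output does, per the file headers. The counter's strand setting and annotation: not given in the sources used here. All 42256 identifiers were found in GENCODE M21 (GRCm38). Groups follow the genotype label. The 15 pairs of libraries had chi-square values, per degree of freedom, of 50.4 to 206, far beyond sampling noise.

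The test was the two-sided quasi-likelihood F test of edgeR 4.0.16 (R 4.3.3, robust, TMM, filterByExpr), with Benjamini-Hochberg adjustment over 15840 genes and a call at 0.05. CPM are TMM-scaled. Each SE was taken from the fold change and its F statistic. A permutation test of 2 against 4 libraries cannot give a p below 0.0667. DESeq2 1.42.0, limma 3.58.1 (voom), other scalings and filters, a GC and length correction (lowess) and leaving out libraries were alternatives. Code was tested on simulated data. The genes and lists (other MMPs, inhibitors, activation and clearance, substrates, transcription factors and inducers, and neutrophil, macrophage, lymphocyte, endothelial, mural, cardiomyocyte, fibroblast and mesothelial markers) were chosen with earlier results of these data known. Named were all 10 MMP genes, other MMP genes with a mean log2 CPM of at least 1, up to 4 genes of smallest p per list, abundant markers, and 3 genes of most similar profile for each of 3 MMP genes. Some genes the rule took are not described. Pdgfra, Xist, Mmp10, Mmp7, Mmp21, Mmp1b, Mmp1a and A2m were named outside the rule or after their values were seen. So were the markers Elane, Ngp, Ltf, Ly6g, Camp, Retnlg, Csf3r, Cxcr2 and Stfa2l1.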

Additional observations from a re-analysis of the deposited data

Results flagged for a closer look

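In 27 sets of values over the 4 Htr2b_cKO libraries (the 10 MMP genes, and sums and ratios of gene lists), 4 had a library farther from the others than the 95% critical value of Dixon's test allows, and chance alone flags about 1 in 20. Mmp8 stood at 9.54 CPM in Htr2b_cKO 4, with the other 3 libraries between 3.19 and 3.41 CPM. The summed neutrophil markers, mostly S100a8 and S100a9, stood at 84.5 CPM in the same library, and the transcription factors and inducers of MMPs summed to 11660 CPM there. The lymphocyte markers stood at 13.6 CPM in the library labelled Htr2b_cKO 3.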

How the results depend on the processing

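Under all 14 alternatives 0 of the 10 MMP genes were called. The direction of Mmp2, Mmp8, Mmp9, Mmp19 and Mmp23 was the same under every alternative. The count of all genes called was 3, and it was 5 with no filter on low counts, 136 with DESeq2 (120 higher, 16 lower), 1 with limma voom, 5 without Htr2b_cKO 4 and the library labelled Htr2b_cKO 3, and 1 to 8 when 1 library was left out. The median log2 fold change of the MMP genes was 0.09, and it was 0.21 after the GC and length correction, -0.078 without those 2 libraries, and 0.02 to 0.15 when 1 library was left out. The sign changed for Mmp14 after the GC and length correction (0.063), and without those 2 libraries for Mmp3 (-0.29), Mmp11 (-0.043), Mmp13 (-0.19) and Mmp14 (0.13). With 1 library left out, Mmp2 ranged from 0.03 to 0.23, Mmp3 from -0.16 to 0.50, Mmp8 from 0.14 to 1.38, Mmp9 from -1.15 to -0.30, Mmp13 from 0.45 to 2.18, Mmp19 from 0.05 to 0.40, Mmp23 from -0.27 to -0.20, Mmp11 from -0.26 to 0.41, Mmp12 from -0.48 to 0.22 and Mmp14 from -0.16 to 0.069. The cause of these changes was not tested. The legacy dispersion was added after the data were seen and called 2 genes, none of them an MMP gene. No paired analysis was possible because the libraries of the groups share no number in the labels. Depth was lowest for Mmp13, with 9 to 79 counts per library, then for Mmp8 with 52 to 321 and Mmp12 with 67 to 283.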
